A study of Mus musculus with 13 samples.

Results

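The 10 genes described here belong to the circadian clock and its closest output: Nr1d1, Nr1d2, Per1, Per2, Per3, Cry1, Cry2, Dbp, Nfil3 and Bhlhe41. They were chosen by name, with the genotype and experiment differences of these same arrays already known, so their values are given as a description and their genotype differences carry no test of their own. Each gene had 1 probe set that the platform annotation gives to it alone, which makes 10 of the 35556 probe sets on the array and 10 of the 19938 genes that could be tested by such a probe set. Levels were measured in whole hippocampus of mice, 1 mouse per array, on 13 Affymetrix Mouse Gene 1.0 ST arrays. The heterozygous mice carried the Kmt2d+/βGeo genotype, a model of Kabuki syndrome in which a single copy of the histone methyltransferase gene Kmt2d carries the βGeo insertion, and their wild-type controls were Kmt2d+/+. Experiment 2 held 3 Kmt2d+/βGeo and 3 wild-type mice, all given 3 saline injections per day as vehicle. Experiment 1 held 3 Kmt2d+/βGeo and 4 wild-type mice that received no injections. All 13 mice were C57BL/6J animals aged 1 to 2 months on standard chow, and 12 are labelled female. Wild-type replicate 3 of experiment 1 has a sex labelled unknown. The labels do not give the hour of dissection.

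The circadian clock is a feedback loop of transcription. CLOCK and BMAL1 (the product of Arntl) bind E-box elements and switch on the Per and Cry genes, whose proteins return to the nucleus and inhibit CLOCK and BMAL1. In a second loop the nuclear receptors REV-ERBα (Nr1d1) and REV-ERBβ (Nr1d2) repress Arntl through RORE elements, which ROR receptors activate. DBP activates and NFIL3 represses genes with D-box elements, and DEC2 (Bhlhe41) represses E-box genes. The suprachiasmatic nucleus of the hypothalamus is the master clock, and the hippocampus holds a local clock in which such transcripts are known to rise and fall over the day. Per1 and Per2 also respond to glucocorticoids and to neuronal activity.

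The 2 probe sets of the targeted gene went opposite ways in experiment 1. The dimmer probe set of Kmt2d averaged 8.02 ± 0.15 log2 units in Kmt2d+/βGeo and 8.53 ± 0.22 in wild-type mice of experiment 2 (SD, n = 3 each). In experiment 1 it averaged 7.33 ± 0.15 in Kmt2d+/βGeo and 7.88 ± 0.014 in wild-type mice (SD, n = 3 and 4). The brighter probe set averaged 9.69 in Kmt2d+/βGeo and 9.63 in wild-type mice of experiment 2, and 9.91 in Kmt2d+/βGeo and 9.82 in wild-type mice of experiment 1. In experiment 1 it spanned 9.84 to 9.95 in Kmt2d+/βGeo and 9.82 to 9.83 in wild-type mice, higher in Kmt2d+/βGeo without overlap, while the dimmer one was lower in Kmt2d+/βGeo without overlap in both experiments. Array medians lay between 7.04 and 7.08 log2 units in experiment 2 and between 6.74 and 6.90 in experiment 1. Neuronal markers of the labelled tissue lay above the array medians. The mean level over 10 dentate granule cell markers was 8.52 to 8.75 in Kmt2d+/βGeo and 8.41 to 8.79 in wild-type mice of experiment 2, and 9.57 to 9.67 in Kmt2d+/βGeo and 8.87 to 9.45 in wild-type mice of experiment 1, where the genotypes did not overlap. One array stood apart: the mean of 9 measured striatal markers was 10.29 on wild-type array 2 of experiment 1 and 7.67 to 8.01 on the other 12 arrays, so the genotype and experiment differences, the spread and the likeness of the clock genes are also given without it. In bulk tissue, fewer cells of a type and less RNA per cell cannot be told apart.

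The region around the transcription start differs among these genes in the elements through which the loop is known to act. The windows are from RefSeq on GRCm38.p6, run from 250 bases before the annotated start to 50 after it on the gene's strand, and are shown for 4 members whose window holds a motif and for 2 of the members that differed most between the experiments. Capitals mark an E-box (CACGTG) or a D-box (TTATGTAA), and all other bases are in lower case.
Bhlhe41, chr6:145865371-145865670, minus strand: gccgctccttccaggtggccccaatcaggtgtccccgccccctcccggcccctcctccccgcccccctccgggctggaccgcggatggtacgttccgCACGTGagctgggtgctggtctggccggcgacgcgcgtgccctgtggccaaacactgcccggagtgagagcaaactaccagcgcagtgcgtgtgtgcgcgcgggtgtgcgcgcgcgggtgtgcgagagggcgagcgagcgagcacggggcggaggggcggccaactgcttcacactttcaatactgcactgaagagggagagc
Per1, chr11:69098699-69098998, plus strand: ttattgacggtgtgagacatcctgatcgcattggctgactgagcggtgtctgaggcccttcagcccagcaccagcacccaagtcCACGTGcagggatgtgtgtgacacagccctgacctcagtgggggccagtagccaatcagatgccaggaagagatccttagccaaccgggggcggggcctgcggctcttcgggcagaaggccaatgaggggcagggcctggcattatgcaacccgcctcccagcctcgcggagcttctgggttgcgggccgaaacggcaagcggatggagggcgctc
Cry1, chr10:85185005-85185304, minus strand: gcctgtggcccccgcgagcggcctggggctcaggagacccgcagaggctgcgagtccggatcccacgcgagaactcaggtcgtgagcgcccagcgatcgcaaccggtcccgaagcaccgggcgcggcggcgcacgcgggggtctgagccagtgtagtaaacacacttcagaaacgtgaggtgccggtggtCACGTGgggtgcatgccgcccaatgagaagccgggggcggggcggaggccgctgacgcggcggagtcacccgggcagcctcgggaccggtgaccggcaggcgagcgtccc
Per3, chr4:151044616-151044915, minus strand: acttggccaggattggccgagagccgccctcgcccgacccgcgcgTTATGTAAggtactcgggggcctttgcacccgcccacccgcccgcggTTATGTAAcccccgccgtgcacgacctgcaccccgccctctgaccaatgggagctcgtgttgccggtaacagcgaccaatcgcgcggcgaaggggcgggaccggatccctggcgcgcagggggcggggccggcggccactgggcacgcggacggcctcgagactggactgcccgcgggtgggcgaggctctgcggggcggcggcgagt
Nr1d1, chr11:98775328-98775627, minus strand: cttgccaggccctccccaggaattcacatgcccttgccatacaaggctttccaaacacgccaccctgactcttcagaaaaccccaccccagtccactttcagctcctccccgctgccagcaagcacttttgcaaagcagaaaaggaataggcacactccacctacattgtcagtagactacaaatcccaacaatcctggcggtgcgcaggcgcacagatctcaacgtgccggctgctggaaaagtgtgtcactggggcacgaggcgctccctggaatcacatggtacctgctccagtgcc
Dbp, chr7:45704997-45705296, plus strand: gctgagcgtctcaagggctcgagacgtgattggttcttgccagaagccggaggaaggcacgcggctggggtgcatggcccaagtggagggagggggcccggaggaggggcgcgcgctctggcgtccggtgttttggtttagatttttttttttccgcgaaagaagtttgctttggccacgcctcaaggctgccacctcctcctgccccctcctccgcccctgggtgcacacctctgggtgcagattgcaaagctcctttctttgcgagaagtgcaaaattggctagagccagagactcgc

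Of the 10 members, 9 matched the promoter table, with 10 windows because Per1 has 2. Per2 had no window in the table. Both strands were searched for the E-box CACGTG, for the D-box as TTATGTAA, TTACATAA, TTACGTAA or TTATATAA, for the cyclic AMP element TGACGTCA, and for the RORE, an AT-rich stretch before AGGTCA or GGGTCA. An E-box lay 153 bases before the start of Bhlhe41, 166 bases before the upstream start of Per1 and 60 bases before the start of Cry1. Per3 held a pair of D-boxes, 205 and 158 bases before its start. Among all 32851 windows of the table, 7.15% held the E-box, 1.59% the D-box, 1.79% the cyclic AMP element and 0.435% the RORE. None of the members' windows held the cyclic AMP element or the RORE in the letters searched. A match is a description of the letters in the window and does not show that a factor binds there.

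The nuclear receptors REV-ERBα and REV-ERBβ repress Arntl and Nfil3, among other targets. In experiment 2 Nr1d1 (chromosome 11) read 10.43, 10.06 and 9.91 log2 units in Kmt2d+/βGeo mice, against 10.35, 10.62 and 10.47 in wild-type mice. Experiment 1 gave 11.24, 11.08 and 11.11 in Kmt2d+/βGeo mice, against 11.25, 11.24, 11.34 and 11.21 in wild-type mice. The genotypes overlapped by 1 Kmt2d+/βGeo array in each experiment, and every array of experiment 2 lay below every array of experiment 1. Its genotype difference, Kmt2d+/βGeo minus wild type over both experiments, was -0.23 ± 0.08 log2 units (SE), with a 95% interval of -0.40 to -0.05. The difference was -0.35 in experiment 2 and -0.12 in experiment 1.

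Nr1d2 (chromosome 14), its close paralogue, read 9.07, 9.41 and 9.20 log2 units in Kmt2d+/βGeo mice of experiment 2, against 9.49, 9.42 and 9.54 in wild-type mice. In experiment 1 Nr1d2 read 9.83, 9.96 and 9.83 in Kmt2d+/βGeo mice, against 10.03, 9.83, 9.94 and 9.97 in wild-type mice. The genotypes overlapped in experiment 1. In experiment 2 all 3 Kmt2d+/βGeo arrays lay below all 3 wild-type arrays, although the highest Kmt2d+/βGeo value nearly reached the lowest wild-type value. The difference over both experiments was -0.15 ± 0.07 log2 units (SE, 95% interval -0.30 to -0.01).

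**Figure D1:**
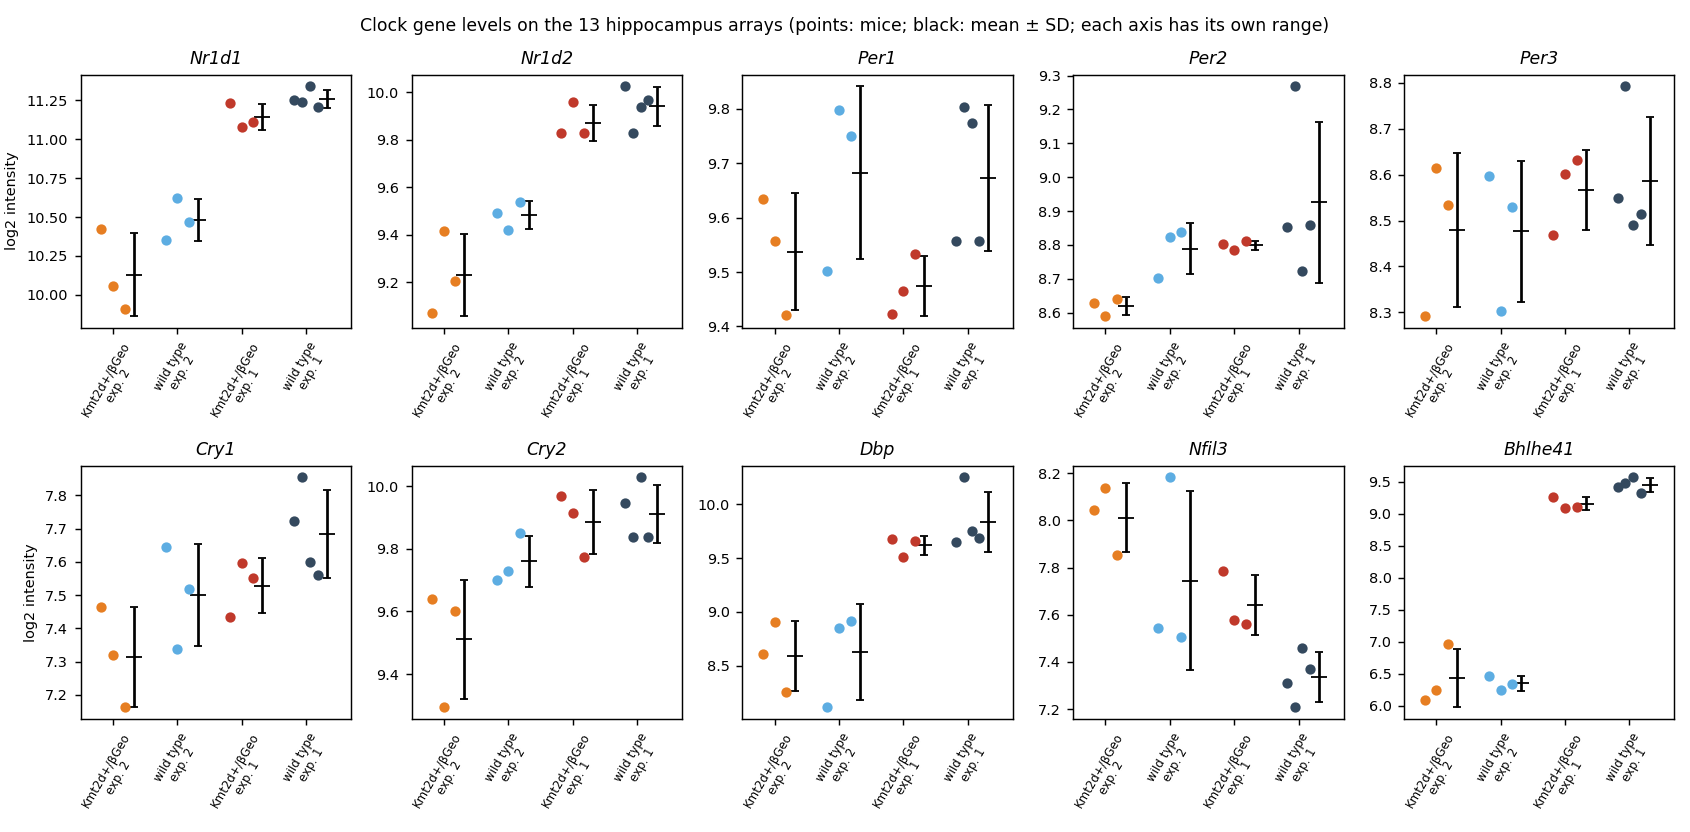
Log2 intensity (y axis, a separate range in each panel) of the 10 clock genes on the 13 arrays, by genotype and experiment (x axis). Each point is 1 mouse and the black bars are the group mean ± SD. Bhlhe41, Dbp, Nr1d1 and Nr1d2 lie lower in experiment 2 than in experiment 1 without overlap, and Nfil3 lies higher without overlap within each genotype.

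The Period genes encode the inhibitors that limit CLOCK and BMAL1 together with the cryptochromes. Per1 (chromosome 11) read 9.63, 9.56 and 9.42 log2 units in Kmt2d+/βGeo mice of experiment 2, against 9.50, 9.80 and 9.75 in wild-type mice. Values in experiment 1 were 9.42, 9.47 and 9.53 in Kmt2d+/βGeo mice, against 9.56, 9.80, 9.77 and 9.56 in wild-type mice. The genotypes overlapped in experiment 2, and in experiment 1 they were apart by a small margin. Its difference over both experiments was -0.17 ± 0.07 log2 units (SE, 95% interval -0.32 to -0.03).

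Per2 (chromosome 1) read 8.63, 8.59 and 8.64 log2 units in Kmt2d+/βGeo mice of experiment 2, against 8.70, 8.82 and 8.84 in wild-type mice. Experiment 1 gave 8.80, 8.78 and 8.81 in Kmt2d+/βGeo mice, against 8.85, 9.27, 8.72 and 8.86 in wild-type mice. The Kmt2d+/βGeo arrays were close to each other in both experiments, and all 3 lay below the wild-type arrays in experiment 2. The difference over both experiments was -0.15 ± 0.08 log2 units (SE, 95% interval -0.31 to 0.01). The wild-type mean of experiment 1 rested on array 2, the one with high striatal markers: the difference in experiment 1 was -0.13 log2 units with it and -0.01 without it.

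Per3 (chromosome 4) showed the least separation. It read 8.29, 8.62 and 8.53 log2 units in Kmt2d+/βGeo mice of experiment 2, against 8.60, 8.30 and 8.53 in wild-type mice. In experiment 1 Per3 read 8.47, 8.60 and 8.63 in Kmt2d+/βGeo mice, against 8.55, 8.79, 8.49 and 8.51 in wild-type mice. The genotypes overlapped widely in both experiments, and the difference over both was -0.01 ± 0.07 log2 units (SE, 95% interval -0.17 to 0.15).

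Of the cryptochromes, the repressors that bind CLOCK and BMAL1 with the Period proteins, Cry1 (chromosome 10) read 7.46, 7.32 and 7.16 log2 units in Kmt2d+/βGeo mice of experiment 2, against 7.64, 7.34 and 7.52 in wild-type mice. In experiment 1 Cry1 read 7.44, 7.60 and 7.55 in Kmt2d+/βGeo mice, against 7.72, 7.85, 7.60 and 7.56 in wild-type mice. Its difference over both experiments was -0.17 ± 0.07 log2 units (SE, 95% interval -0.32 to -0.02), and the genotypes overlapped in both. Cry2 (chromosome 2) read 9.64, 9.29 and 9.60 in Kmt2d+/βGeo mice of experiment 2, against 9.70, 9.73 and 9.85 in wild-type mice. In experiment 1 Cry2 read 9.97, 9.91 and 9.77 in Kmt2d+/βGeo mice, against 9.95, 9.84, 10.03 and 9.84 in wild-type mice. For Cry2 the genotypes interleaved in experiment 1 and did not overlap in experiment 2, where the difference was -0.25 log2 units against -0.03 in experiment 1. Over both experiments it was -0.13 ± 0.07 log2 units (SE, 95% interval -0.29 to 0.03).

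The D-box regulators had genotype differences of opposite sign. Dbp (chromosome 7), an activator whose transcript is among the most strongly rhythmic in many tissues, read 8.61, 8.91 and 8.25 log2 units in Kmt2d+/βGeo mice of experiment 2, against 8.11, 8.85 and 8.91 in wild-type mice. Values in experiment 1 were 9.68, 9.51 and 9.66 in Kmt2d+/βGeo mice, against 9.65, 10.25, 9.76 and 9.68 in wild-type mice. The highest value of experiment 1 was again wild-type array 2, and without it the difference there was -0.08 log2 units, against -0.22 with it. Over both experiments the difference was -0.13 ± 0.14 log2 units (SE, 95% interval -0.43 to 0.16).

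Nfil3 (chromosome 13), the repressor that competes with DBP for the same sites, was the only member with a positive genotype difference over both experiments. It read 8.04, 8.14 and 7.85 log2 units in Kmt2d+/βGeo mice of experiment 2, against 7.55, 8.18 and 7.51 in wild-type mice, where wild-type array 2 was the highest of all. Experiment 1 gave 7.79, 7.58 and 7.56 in Kmt2d+/βGeo mice, against 7.31, 7.21, 7.46 and 7.37 in wild-type mice, and the genotypes did not overlap. The difference over both experiments was 0.29 ± 0.10 log2 units (SE, 95% interval 0.08 to 0.50), with 0.27 in experiment 2 and 0.30 in experiment 1. It stood at the 99.7th percentile of all genes tested, with an adjusted p of 0.795 in limma. Nfil3 was chosen with this difference known, so nothing is read from the rank.

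Bhlhe41 (chromosome 6), the E-box repressor DEC2, read 6.10, 6.25 and 6.96 log2 units in Kmt2d+/βGeo mice of experiment 2, against 6.47, 6.25 and 6.33 in wild-type mice. In experiment 1 Bhlhe41 read 9.27, 9.09 and 9.11 in Kmt2d+/βGeo mice, against 9.42, 9.48, 9.57 and 9.32 in wild-type mice. In experiment 2 the genotypes overlapped and differed by 0.08 log2 units, while in experiment 1 they did not overlap, and the difference was -0.29. Over both experiments the difference was -0.12 ± 0.12 log2 units (SE, 95% interval -0.37 to 0.13). The genotype difference of experiment 2 minus that of experiment 1 was 0.38 log2 units and did not pass the threshold. Markers of tissue that borders the hippocampus were read beside these values. The mean of 11 choroid plexus markers was 7.46 to 8.55 in Kmt2d+/βGeo and 6.71 to 8.28 in wild-type mice of experiment 2, and 8.0 to 8.34 in Kmt2d+/βGeo and 8.01 to 9.49 in wild-type mice of experiment 1. The overlap in experiment 1 came from wild-type array 2 alone, and the other 3 wild-type arrays lay at 9.256 to 9.494. The mean of 7 ependymal markers was 6.94 to 7.05 in Kmt2d+/βGeo and 6.72 to 6.96 in wild-type mice of experiment 2, and 6.65 to 6.90 in Kmt2d+/βGeo and 7.17 to 7.34 in wild-type mice of experiment 1. That of 8 myelin markers was 10.22 to 10.51 in Kmt2d+/βGeo and 9.77 to 10.51 in wild-type mice of experiment 2, and 10.39 to 10.76 in Kmt2d+/βGeo and 10.82 to 11.04 in wild-type mice of experiment 1. The median genotype difference of these 3 lists was above 0 in experiment 2, at 0.382, 0.251 and 0.216 log2 units for choroid plexus, ependyma and myelin. It was below 0 in experiment 1, at -0.86, -0.383 and -0.243 log2 units in the same order. No marker of these lists passed the threshold for genotype. Their part in the clock gene values was not tested.

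**Figure D2:**
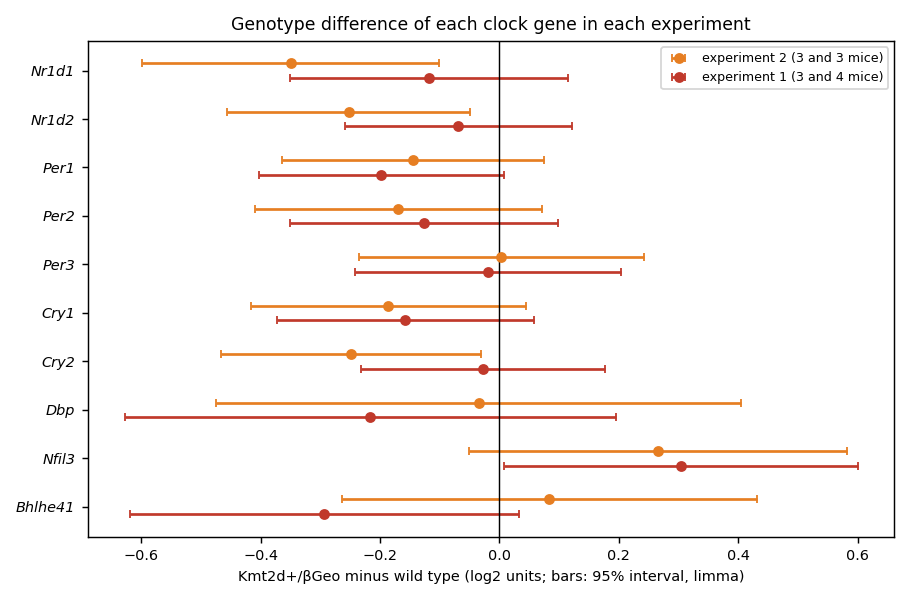
Kmt2d+/βGeo minus wild-type difference in log2 units (x axis) of each clock gene, in experiment 2 (3 and 3 mice) and experiment 1 (3 and 4 mice). Points are the limma estimates and bars their 95% intervals. Nfil3 lies above 0 in both experiments, Per3 lies near 0, and Bhlhe41 lies above 0 in experiment 2 and below 0 in experiment 1.

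Across the 10 members, 9 differences over both experiments were below 0, where 49.0% of all genes tested were. In 7 members the difference was below 0 in both experiments, against 21.8% of all genes. Their median difference was -0.139 log2 units, beside 0.00227 for all genes. The members were selected on results that included these differences, so nothing is read from these shares. None of the 10 passed an adjusted p of 0.05 in limma over both experiments, with adjusted p-values of 0.795 to 0.991, and 0.0% of all genes passed. In experiment 2 none of the members passed, where 0.0% of all genes did, and in experiment 1 none passed, where 0.0201% did. Before adjustment, p was under 0.05 for 1046 of all genes over both experiments, for 2042 in experiment 2 and for 698 in experiment 1. The test of the difference between the experiments' genotype effects gave adjusted p-values of 0.77 to 0.983 in the members, with 0.0% of all genes called. The genotypes did not overlap for 3 members in experiment 2 (Nr1d2, Per2 and Cry2), against 9.48% of all genes. They did not overlap for 3 other members in experiment 1 (Per1, Nfil3 and Bhlhe41), against 7.22% of all genes. Without wild-type array 2 the same 3 members did not overlap in experiment 1, against 15.1% of all genes. Without wild-type array 2 of experiment 1, the difference over both experiments was -0.24 log2 units for Nr1d1, -0.18 for Nr1d2, -0.15 for Per1, -0.09 for Per2, 0.03 for Per3, -0.14 for Cry1, -0.15 for Cry2, -0.06 for Dbp, 0.26 for Nfil3 and -0.10 for Bhlhe41, so Per3 changed sign and Dbp came closer to 0. Among all other settings tried, a member passed in a single one: Nr1d1 in experiment 2 without Kmt2d+/βGeo replicate 1, with a difference of -0.50 log2 units and an adjusted p of 0.0477 in limma, where 91 genes passed. That replicate, at 10.43 log2 units, was the only Kmt2d+/βGeo array of experiment 2 above the lowest wild-type value of Nr1d1, 10.35. Leaving it out therefore separates the genotypes, and nothing is read from this call.

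In Bhlhe41, Dbp, Nr1d1 and Nr1d2 the experiments differed far more than the genotypes. This did not hold for every member: Per1 differed by 0.03 log2 units between the experiments and -0.17 between the genotypes, and Per2 by -0.16 and -0.15. Bhlhe41 was 7.56-fold lower in experiment 2 than in experiment 1, a difference of -2.92 log2 units over both genotypes (limma adjusted p = 2.49e-12), and only 15 of the 19938 genes had a more negative difference. On all arrays of experiment 2 it read below the array medians, and no detection call was used here, so the fold was not checked against background. The difference was -2.72 log2 units in Kmt2d+/βGeo and -3.09 in wild-type mice. Dbp differed by -1.13 log2 units (adjusted p = 1.68e-06), Nr1d1 by -0.89 (adjusted p = 6.0e-08) and Nr1d2 by -0.54 (adjusted p = 1.82e-06) in the same limma fit. Smaller differences passed for Cry2, at -0.26 log2 units (limma adjusted p = 0.00474), and for Cry1, at -0.20 (limma adjusted p = 0.0196). Nfil3 was higher in experiment 2 by 0.39 log2 units (limma adjusted p = 0.00189). The Period genes did not pass, with -0.16 log2 units for Per2, -0.10 for Per3 and 0.03 for Per1, and limma adjusted p-values of 0.0673 to 0.65.

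These 7 calls among 10 members stand beside 77.2% of all genes called in this comparison. Lower calls were 6 of 10 members against 35.4% of all genes, and higher calls 1 of 10 against 41.8%. These shares depend on brightness. With the lowest 50% of genes by mean left out, Cry1 among them, 5880 of 9969 genes were lower past the threshold and 2140 higher. The median over those brighter genes was -0.317 log2 units, and 6 members passed, so nothing is read from the direction of the members' calls. Within Kmt2d+/βGeo mice 6 of 10 members passed, against 62.3% of all genes, and within wild-type mice 5 of 10 passed, against 69.3%. The median over all genes was 0.0699 log2 units, which became -0.175 when each array was centred on its median and -0.0477 after quantile normalization. Among all calls, 54.2% were higher in experiment 2, against 28.3% with centring and 41% with quantile normalization. Bhlhe41, Dbp, Nr1d1, Nr1d2 and Cry1 were lower in experiment 2 and past the threshold under all 3 scalings, with Nr1d2 at -0.24 log2 units under quantile normalization and Cry1 at -0.44 under centring. Leaving out wild-type replicate 2 of experiment 2 ended the call of Cry1, at -0.16 log2 units and a limma adjusted p of 0.0586. Per1 had -0.21 log2 units with centring and 0.34 with quantile normalization, both past the threshold. Cry2 had 0.04 with quantile normalization, and Nfil3 had 0.15 with centring, neither of them past it. Per2 had -0.40 and Per3 -0.34 with centring, both past the threshold, and 0.07 and 0.09 with quantile normalization, neither past it. Without wild-type array 2 of experiment 1 the same 7 members passed, with Dbp at -1.05 and Bhlhe41 at -2.90 log2 units. Markers of hippocampal and bordering cells also differed between the experiments. Of the 10 dentate granule cell markers 9 were lower in experiment 2 past the threshold and none higher, with a median difference of -0.775 log2 units. Lower past the threshold were also 4 of 5 CA1 markers, 6 of 8 CA3 and CA2 markers with 1 higher, 5 of 11 choroid plexus markers and 5 of 8 myelin markers with 1 higher. Their part in the clock gene values was not tested. The labels describe different microarray experiments, and the injections, the microarray experiment and the mice cannot be told apart.

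**Figure D3:**
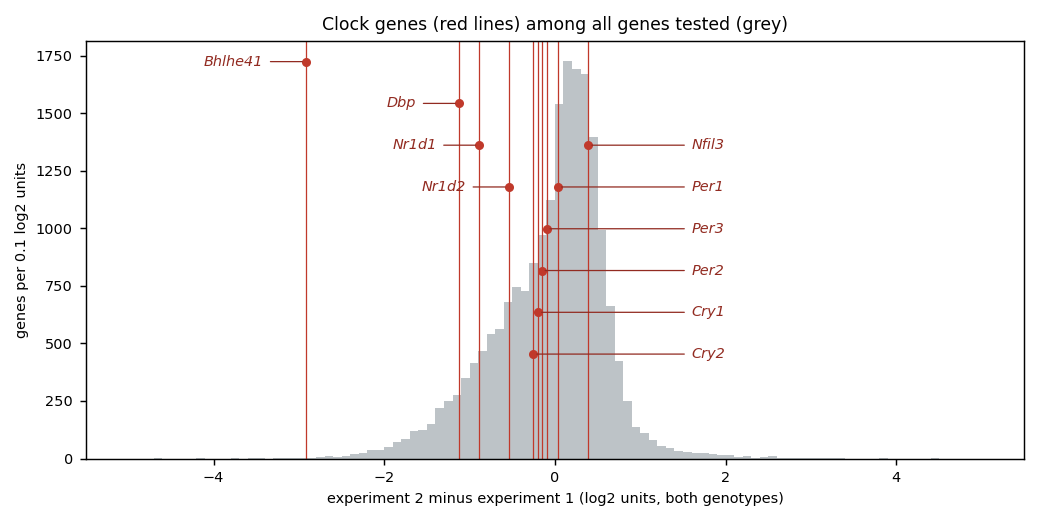
Experiment 2 minus experiment 1 difference in log2 units over both genotypes (x axis), with the number of genes per 0.1 log2 units (y axis, grey) for all 19938 genes tested and a red line for each clock gene. Bhlhe41 lies far in the lower tail at -2.92, Dbp, Nr1d1 and Nr1d2 lie in the lower part, and Per1 and Nfil3 lie above 0.

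Other clock genes, from lists of activators, of outputs and repressors, and of kinases and ligases, gave no genotype call. Of 4 measured activators of the core loops and RORs, Arntl, which encodes BMAL1, differed between the genotypes by 0.02 log2 units and Clock by 0.09, and Npas2 was not analysed here. Wee1, a cell cycle kinase gene under clock control, had the only unadjusted p under 0.05 among the 22 listed genes measured in the genotype comparison over both experiments, at 0.21 ± 0.09 log2 units (SE), with an adjusted p of 0.934 in limma. Within single experiments more of them had an unadjusted limma p under 0.05, and none passed after adjustment. Ciart did so in experiment 1 at -0.54 log2 units, against 0.29 in experiment 2. Rorb at -0.37, Wee1 at 0.35, Arntl2 at 0.26 and Clock at 0.24 did so in experiment 2. In experiment 1 these had 0.22, 0.09, 0.08 and -0.05 in the same order. Between the experiments, experiment 2 minus experiment 1, Arntl was higher by 0.21 log2 units (limma adjusted p = 0.0112) and Clock lower, at -0.54 (limma adjusted p = 1.44e-05). Of the activators 3 were lower and 1 higher past the threshold, of 10 measured outputs and repressors 6 were lower and 1 higher, and all 8 measured kinases and ubiquitin ligases of the clock were lower. Among all genes 35.4% were lower and 41.8% higher past the threshold. The means of these lists lay above the array medians on every array. With the lowest 50% of genes by mean left out, 5880 of 9969 genes were lower past the threshold and 2140 higher. Scaling changed some of these: Arntl had -0.03 with centring and 0.39 with quantile normalization, and under quantile normalization Hlf had -0.02 and Csnk1e -0.09, with 7 of 8 kinases and ligases lower past the threshold. Under quantile normalization 7499 of all 19938 genes were lower past the threshold. The ROR receptors differed by -0.87 log2 units for Rora and -2.05 for Rorb. Among the outputs and repressors, Bhlhe40, the paralogue DEC1 of Bhlhe41, differed by -1.36 log2 units, Noct by -1.63, Wee1 by -1.22, Ciart by -1.20, Nampt by -2.92 and Hlf by -0.27, while Timeless differed by 0.52. The kinases and ligases differed by -0.88 log2 units for Csnk1d, -0.26 for Csnk1e, -0.49 for Gsk3b, -0.64 for Prkaa1, -1.01 for Csnk2a1, -1.09 for Fbxl21, -0.69 for Btrc and -1.64 for Fbxw11. In experiment 2 Nampt averaged 6.81 log2 units in Kmt2d+/βGeo and 6.65 in wild-type mice, and Fbxl21 6.54 and 6.44, below the array medians. Timeless averaged 6.69 and 6.63 in experiment 1, also below them. These differences were not checked against background. Timeless had 0.28 with centring and 0.29 with quantile normalization.

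Over the 4 groups together, Dbp varied most of the members between mice of 1 group. Its pooled SD within the 4 groups was 0.31 log2 units, at the 97.9th percentile of all genes, followed by Bhlhe41 with 0.236 at the 93.3rd percentile and Nfil3 with 0.21 at the 88.4th. The other 7 members had SDs of 0.105 to 0.15 log2 units, near the median of all genes of 0.137. Dbp had an SD of 0.391 in experiment 2 and 0.225 in experiment 1, and the value of experiment 1 was 0.0752 without wild-type array 2. The median of all genes was 0.156 in experiment 2 and 0.1 in experiment 1, and 0.0879 in experiment 1 without that array. Without it Dbp therefore lay below the median gene in experiment 1. Bhlhe41 and Nfil3 had SDs of 0.335 and 0.287 in experiment 2 and 0.102 and 0.115 in experiment 1. Wild-type array 2 of experiment 1 was the highest of its group in Dbp, Per1, Per2, Per3 and Cry1. Without it the pooled SD was 0.281 log2 units for Dbp, still at the 97.9th percentile, 0.25 for Bhlhe41, at the 95.7th, and 0.216 for Nfil3, at the 91.2nd. Per2 moved most, with an SD of 0.0557 at the 2.16th percentile without that array, against 0.142 at the 54.5th with it.

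**Figure D4:**
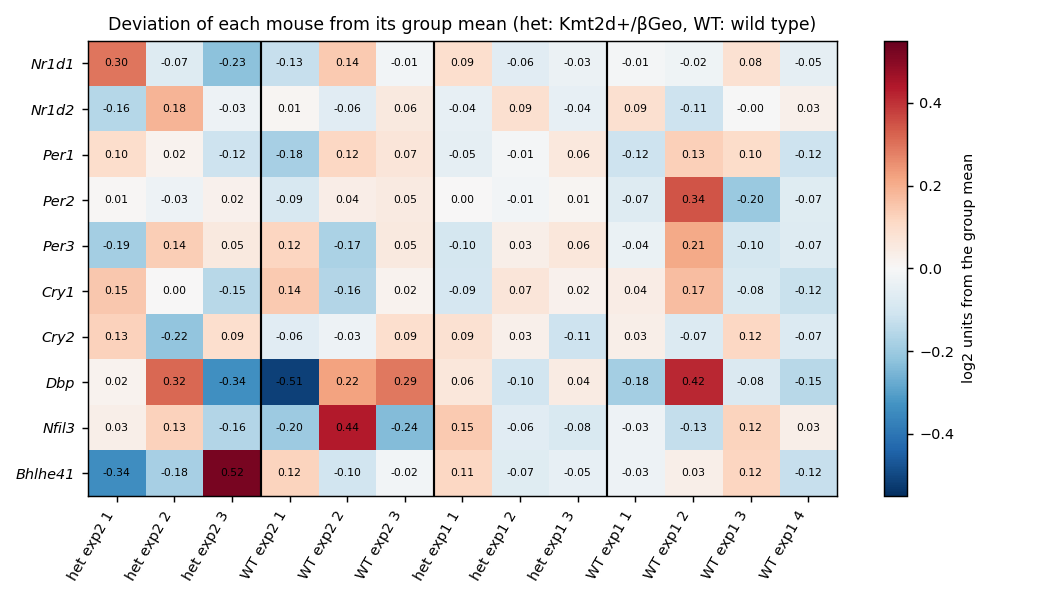
Deviation of each mouse (columns) from the mean of its group in log2 units (colour and printed value) for the 10 clock genes (rows). Dbp and Per1 deviate in the same direction on most arrays, and Kmt2d+/βGeo array 3 of experiment 2 is high in Bhlhe41 and low in Dbp and Nr1d1.

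Likeness to Dbp was measured as the correlation of deviations from the group means over the 13 arrays, which come from 2 microarray experiments. Among the members it was 0.794 for Per1, which ranked 265 of 19937 genes, then 0.593 for Per2, 0.374 for Nr1d1 and 0.296 for Nfil3, and it was lowest for Bhlhe41 at -0.441. Several members changed sign between the experiments. Likeness in experiments 2 and 1 was -0.631 and 0.355 for Bhlhe41, 0.302 and -0.892 for Nr1d2, and -0.25 and 0.767 for Per3. It was 0.501 and -0.4 for Nfil3, -0.206 and 0.594 for Cry1, and 0.871 and 0.693 for Per1. Without wild-type array 2 of experiment 1 the likeness to Dbp was 0.756 for Per1 and 0.42 for Per2. Per3 went from 0.107 to -0.172 without it, Cry1 from 0.0757 to -0.164 and Nr1d2 from -0.0673 to 0.129. Clock stood near the opposite end, with -0.888 and rank 19916. The 5 genes most like Dbp were Elapor1 at 0.964, Casr at 0.952, Josd2 at 0.948, Klra8 at 0.946 and Cd33 at 0.939. The 5 least like it were Psmd13 at -0.959, Cped1 at -0.949, Jkamp at -0.933, Marchf6 at -0.927 and Ctsd at -0.921. Those most like Per1 were Lingo3 at 0.937, Nfkbib at 0.936, Zfp335 at 0.929, Meis3 at 0.918 and Ubald1 at 0.916. These deviations moved with a pattern spread over many genes. The first principal component of the deviations of all genes held 23.6% of their variance, and its correlation was 0.777 with Dbp, 0.738 with Per1, -0.724 with Bhlhe41 and -0.801 with Clock, beside a median absolute correlation of 0.387 over all genes. Without wild-type array 2 of experiment 1 the component held 27.9% of the variance, and its correlation was 0.733 with Dbp, 0.732 with Per1, -0.906 with Bhlhe41 and -0.807 with Clock, beside a median of 0.428. With all arrays, in 6.85% of genes the absolute correlation exceeded that of Dbp. This component was read after the likeness values had been seen, and the part of this component in the clock gene values was not tested.

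Fixed pairs of members were compared within each experiment by Pearson and Spearman correlation over the arrays with exact permutation, 9 pairs in 2 experiments, or 18 relations. None passed an adjusted p of 0.05. Per1 and Dbp gave r = 0.772 in experiment 1 (n = 7, exact permutation p = 0.00794, adjusted p = 0.0786, rho = 0.703, exact permutation p = 0.0857), and r was 0.3 without the 2 arrays farthest from the median of Per1, so on the levels it rests on those arrays. On deviations from the group means r was 0.693 in experiment 1, and 0.702 without the same 2 arrays. In experiment 2 the same pair gave r = 0.757 (n = 6, exact permutation p = 0.0986) and 0.662 without the 2 farthest arrays, while on deviations r was 0.871, and -0.61 without the 2 farthest arrays, so on deviations it rests on those arrays. Cry1 and Nfil3 gave r = -0.892 in experiment 1 (n = 7, exact permutation p = 0.00873, adjusted p = 0.0786, rho = -0.821, exact permutation p = 0.0341) and -0.63 without the 2 farthest arrays. In experiment 2 they gave r = -0.591 (n = 6, exact permutation p = 0.225). On deviations from the group means r for Cry1 and Nfil3 was -0.866 in experiment 1, and -0.954 without the 2 farthest arrays. In experiment 2 it was -0.424 on deviations, and -0.138 without the 2 farthest arrays. Nr1d1 and Nr1d2 gave r = 0.277 in experiment 2 and 0.135 in experiment 1. On deviations from the group means this pair had the opposite sign, with r = -0.592 in experiment 2 and -0.291 in experiment 1. Without the 2 farthest arrays r on deviations was 0.61 in experiment 2 and -0.301 in experiment 1. Genotypes are mixed in these correlations, and on deviations from the group means the lowest adjusted p over the 18 relations was 0.224 by exact permutation.

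Genes that respond to handling or activity were read beside the clock genes. Of 17 measured glucocorticoid-induced genes, 14 had a genotype difference below 0 over both experiments, where 49.0% of all genes did, and none passed the threshold. Within experiment 2 it was 11 of 17, with a median of -0.0105 log2 units beside -0.011 for all genes. Within experiment 1 it was 12 of 17, with a median of -0.0816 beside 0.0152. In experiment 2 against experiment 1, 12 of the 17 glucocorticoid-induced genes were lower and 1 was higher past the threshold, where 35.4% of all genes were lower and 41.8% higher. The mean of this list lay above the array medians, at 8.28 log2 units or higher on every array. With the lowest 50% of genes by mean left out, 5880 of 9969 genes were lower past the threshold and 2140 higher. Of 16 immediate early genes, 11 had a genotype difference below 0 and none passed, and between the experiments 7 were lower and 4 higher. With centring 15 glucocorticoid-induced genes were lower and none higher, and 10 immediate early genes were lower and 1 higher. Centring moved all genes down: 9929 of 19938 were then lower past the threshold and 3913 higher. The mean of 10 markers of hypothalamus and suprachiasmatic nucleus lay between 6.56 and 6.85 log2 units in experiment 2 and between 6.45 and 6.59 in experiment 1, below the array medians of each. Their part in the clock gene values was not tested.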

How the data were processed

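Levels were measured in 13 whole hippocampi, 1 array per mouse, in 4 groups of genotype by experiment taken from the labels. The deposited values are log2 intensities per probe set, made by the authors with RMA in oligo, per the submitters' processing notes. The method subtracts background, brings arrays to a common distribution and summarises probes by median polish, which can compress differences and give tied values. Versions and whether all arrays were normalised together are not stated there. No deposited column was left out. The platform annotation gives 1 gene symbol to 21789 of 35556 probe sets, several to 1621 and none to 12146. Each of 19938 genes was represented by its brightest probe set, with no filter on dim ones.

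Array weights and blocks used statmod 1.5.0. Under R 4.3.3, limma 3.58.1 (lmFit, then eBayes) fitted genotype and experiment together, and the 4 groups for effects within experiments. Tests were two-sided, adjusted by the Benjamini-Hochberg method over all genes at a threshold of 0.05, and tested on simulated data. The number of arrays limits the precision. Correlations and the exact permutation of pairings were computed with NumPy 2.4.6 in Python 3.11.15, with ranks from SciPy 1.17.1.

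The members, lists and tests were chosen with earlier results of these data known. The exact permutation of genotype planned for single members was not computed, since the members were chosen with that contrast known. The first component of the deviations was added after values were seen. All members were named. Other clock genes were named at an unadjusted p under 0.05 for genotype or an adjusted p under 0.05 between experiments, with Arntl, Clock and Npas2 named always, and the genes most and least like Dbp and most like Per1 were named. Alternatives were the mean of all probe sets per gene, every probe set, leaving out the lowest 30% or 50% of genes, eBayes with trend, array weights, median centring, quantile normalization, leaving out each array, only the arrays of a contrast, and the replicate number as a block. Promoter windows are RefSeq's on GRCm38.p6.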

Additional observations from a re-analysis of the deposited data

Results flagged for a closer look

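Groups of 4 arrays were checked for a single array far from the others, over the levels of the clock genes and the means of gene lists. Of 26 groups of values checked, all of them wild-type arrays of experiment 1, 4 stood out, and chance gives about 5% of such groups. The gap to the nearest array, as a share of the whole range, was 0.985 for the mean of the striatal markers, where replicate 2 was high at 10.291 log2 units. It was 0.872 for the mean of the meningeal markers, where replicate 2 was low at 7.808, and 0.84 for the choroid plexus markers, where replicate 2 was low at 8.007. For the mean of the clock outputs and repressors the share was 0.832, with replicate 3 high at 9.194. No single clock gene among the 10 members passed the critical value of 0.829 for 4 arrays. Dbp and Per3 came near it, both with replicate 2 high. Dbp read 10.25 log2 units there and 9.65 to 9.76 on the other wild-type arrays of experiment 1. Per3 read 8.79 there and 8.49 to 8.55 on the others.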

How the results depend on the processing

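The number of genes past the threshold between the experiments, 15385 over both genotypes, was 26086 with every probe set tested and 8020 with the lowest 50% of genes left out. In Kmt2d+/βGeo mice it was 20593 and 7109 under these settings, against 12424, and in wild-type mice 22823 and 7399, against 13810. More or fewer features were tested in both. Of the members, Per1 reversed to -0.21 log2 units with median centring and Cry2 to 0.0446 with quantile normalization. Per2 and Per3, not past the threshold in either fit, also turned sign with quantile normalization, to 0.07 and 0.09. The cause was not tested.

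The genotype comparison over both experiments called 0 genes (limma, with 0 of the members), 21 with array weights, 1 without wild-type arrays 2 and 3 of experiment 1, a setting chosen after seeing the data, and 0 to 2 when each array was left out. In experiment 1 it called 4 genes, 163 with array weights, 2 with quantile normalization, 2 with only the arrays of the contrast, and 0 with every probe set, with the lowest 50% of genes left out, without the array of unknown sex (which is replicate 3) or without wild-type arrays 2 and 3. Leaving out each array gave 0 to 48, the most without wild-type replicate 2. In experiment 2 it called 0 genes, 2 with quantile normalization, and 0 to 91 with an array left out, the most without Kmt2d+/βGeo replicate 1.

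Replicate numbers did not pair the mice: deviations of same-numbered mice correlated at -0.228 to 0.221, and 1 of 6 Kmt2d+/βGeo arrays correlated best with its own number. With the replicate number as a block, the genotype comparison called 1 gene in experiment 1. The median likeness of the other members to Dbp was 0.107 over all arrays, 0.302 within experiment 2 and 0.355 within experiment 1. A fit on only the arrays of a contrast could not differ from the full fit over both experiments and was not run there.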
